A study of Petunia x hybrida with 32 samples.

Results

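The transcripts described here code for basic helix-loop-helix (bHLH) transcription factors of petunia leaves. One is annotated as bHLH71 (comp12253_c0_seq1), and the others are a pair of isoforms of a single assembled component annotated as bHLH157-like (comp10033_c0_seq1 and comp10033_c0_seq2). They are 3 of 4767 transcripts with expression values, and 2 of 3450 components. How the 4767 were chosen is not stated, so shares and ranks below hold within them and not within the whole transcriptome. The 3 members described here were selected on their expression across the 5 groups below. All of their differences between groups are therefore given as a description, with no test. Tests are given for other bHLH transcripts, for genes of related pathways and for the index primer, none of which chose the members. The lists were chosen with earlier results of these data known, and their named transcripts mostly by smallest adjusted p.

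RNA was sequenced from the leaves of Petunia x hybrida cv. Mitchell Diploid, a self-compatible laboratory petunia, grown in aerated nutrient solution. Control leaves, which received no NaCl, were taken at 0, 6 and 24 h, and salt-treated leaves were taken 6 and 24 h after 150 mM NaCl was added to the solution. Each group had 3 biological replicates, and each replicate was a pool of leaves of 3 plants, so variation between single plants was not measured. Per the methods, the pools of plants were set up within each treatment and leaves were taken at each time, so times within a treatment may share plants. The same cDNA was indexed with primers purified by high-performance liquid chromatography (HPLC) and with cheaper primers that were not, and 28 libraries of the 15 replicates were used here, of 29 in the table. Values are RPKM, reads per transcript scaled for its length and for the mapped reads of the library, averaged over the libraries of a replicate. The sum of RPKM over all 4767 transcripts ranged from 134509 to 303427 between libraries, and the number of reads behind each value is not known from RPKM.

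bHLH proteins bind DNA as pairs: the helix-loop-helix region joins 2 partners, and the basic region in front of it contacts short motifs such as the E-box. Which partner is present therefore decides much of what a bHLH factor does. In Arabidopsis, bHLH71 and bHLH93 bind FAMA, the bHLH factor that drives the last step of guard cell formation in the stomatal lineage. Arabidopsis bHLH157 belongs with LONESOME HIGHWAY and its relatives, bHLH factors of vascular tissue whose best known member pairs with TARGET OF MONOPTEROS 5 and activates LOG genes of cytokinin synthesis. Roles in petunia were not measured here.

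All 3 transcripts carried a single molecular function term in the annotation, protein dimerization activity. This term was given to 55 transcripts of the annotation, of which 6 had RPKM values. Of 18482 annotated transcripts, 64 from 39 components were described as bHLH factors, and 7 of these, from 6 components, had RPKM values. The other 4 were annotated as MYC2-like, PIF1-like, bHLH122-like and bHLH93-like. No further isoform of the components of bHLH71 and bHLH157 had an RPKM value.

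bHLH71 was the most abundant of the 7 bHLH transcripts in control leaves. At 0 h its RPKM was 98.3, 124 and 146 in the replicates, a mean of 122.9 ± 23.8 (SD, n = 3). This level was above that of 96.4% of all transcripts with values. Control leaves at 6 h had 71.7, 85.5 and 100.4 RPKM (85.9 ± 14.4, SD, n = 3), a range that overlapped that of 0 h. The overlap came from replicate 2 at 100.4 RPKM, which rested on its HPLC library alone. Control leaves at 24 h had 31.4, 34.5 and 67.9 RPKM (44.6 ± 20.2, SD, n = 3). The higher value was replicate 1, and both of its libraries showed it, with 73.0 RPKM with the HPLC primer and 62.8 RPKM without. All 3 replicates at 24 h were below all replicates at 0 and 6 h. The share of all transcripts separated in this way was not counted. In tests at a false discovery rate of 0.05, 22.1% of 4658 transcripts were lower at 24 h than at 0 h.

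Salt-treated leaves held much less bHLH71 RNA. At 6 h the replicates were at 14.1, 16.9 and 18.4 RPKM (16.4 ± 2.2, SD, n = 3), and at 24 h at 8.4, 9.8 and 13.5 RPKM (10.6 ± 2.6, SD, n = 3). The mean was 5.22-fold below control at 6 h and 4.22-fold below control at 24 h. On the log2(RPKM + 1) scale the salt minus control difference was -2.31 (SE 0.28) at 6 h and -1.92 (SE 0.28) at 24 h. No salt-treated replicate overlapped the control replicates of its time. Over all 4658 transcripts that passed the filter on low values, 24.6% were lower in salt without overlap at 6 h and 25.2% at 24 h. In leaves, fewer cells of a type and less RNA per cell cannot be told apart in such bulk samples.

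**Figure D1:**
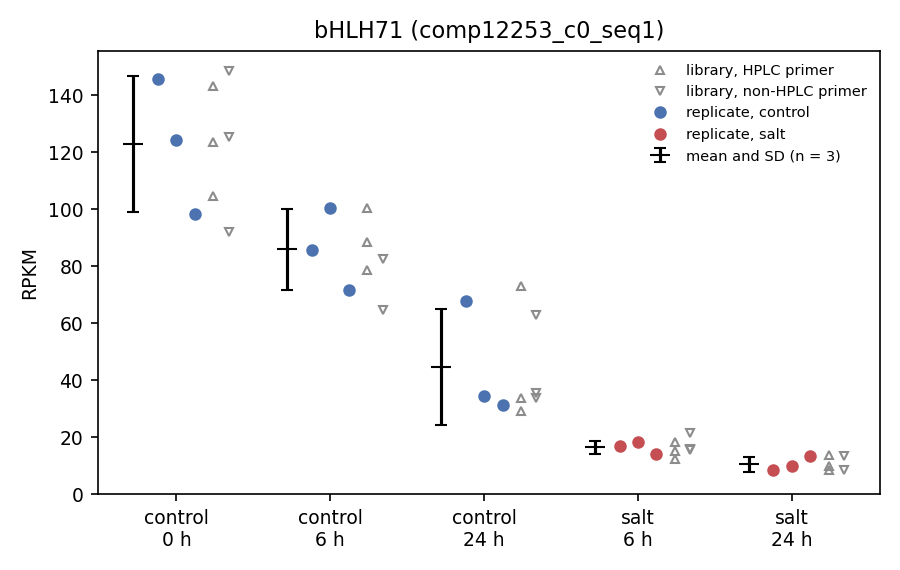
bHLH71 level in RPKM (linear axis from 0) in the 5 groups. Filled circles are biological replicates in the order 1 to 3, open triangles single libraries by index primer, and the black dash and bar the mean and SD (n = 3). The salt-treated replicates lie between 8.4 and 18.4 RPKM, and the lowest control replicate is at 31.4 RPKM.

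bHLH71 was lower at later times in control leaves as well as in salt. The control mean at 24 h was 2.75-fold below that at 0 h, a difference of -1.51 on the log2(RPKM + 1) scale, and the difference between 6 and 0 h in control leaves was -0.51. The salt mean at 24 h was 1.55-fold below the salt mean at 6 h. The groups did not overlap, although the lowest replicate at 6 h (14.1 RPKM) and the highest at 24 h (13.5 RPKM) lay close together. The share of all transcripts without overlap between these salt groups was not counted. From control leaves at 0 h to salt-treated leaves at 24 h the mean was 11.6-fold lower. The order of levels was thus control 0 h, control 6 h, control 24 h, salt 6 h and salt 24 h, and control 0 and 6 h were the neighbours whose replicates overlapped. The salt minus control difference at 24 h minus that at 6 h was 0.39 (SE 0.40), about as large as its standard error. Its place among all transcripts went from above 96.4% of them in control leaves at 0 h to above 74.2% in salt-treated leaves at 24 h.

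The bHLH157-like isoforms had low levels in 4 of the 5 groups. The first isoform, seq1, was at 0.62, 0.89 and 0.90 RPKM in control leaves at 0 h and 0.49, 0.88 and 1.0 RPKM in control leaves at 6 h. Control leaves at 24 h had 0.42, 0.68 and 0.91 RPKM and salt-treated leaves at 6 h 0.28, 0.68 and 0.74 RPKM. The means of these 4 groups were 0.57 to 0.80 RPKM and each neighbour in the order overlapped the next. Salt-treated leaves at 24 h stood apart, with 2.33, 2.43 and 2.71 RPKM (2.49 ± 0.20, SD, n = 3). All 5 libraries of that group were at 2.05 RPKM or more, whereas the highest of the other libraries was at 1.43 RPKM. The share of all transcripts set apart from the other 4 groups in this way was not counted.

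Relative to control leaves of the same hour, seq1 was 3.69-fold higher in salt at 24 h, or 1.07 (SE 0.19) on the log2(RPKM + 1) scale, which understates changes of transcripts this low. At 6 h the difference was -0.19 (SE 0.19) and the groups overlapped. Salt-treated leaves at 24 h were 4.39-fold above salt-treated leaves at 6 h. The salt difference at 24 h minus that at 6 h was 1.26 (SE 0.28). In control leaves the differences from 0 h were -0.02 at 6 h and -0.11 at 24 h, both smaller than the SE, and their sign changed with the processing.

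The second isoform, seq2, was also highest in salt-treated leaves at 24 h. Its replicates were at 0.36, 0.54 and 0.76 RPKM in control leaves at 0 h, at 0.36, 0.49 and 0.79 RPKM at 6 h, and at 0.0, 0.41 and 0.69 RPKM at 24 h. The value of 0 was control 24 h replicate 1, listed at 0 in both of its libraries. Salt-treated leaves had 0.58, 0.68 and 0.81 RPKM at 6 h and 1.13, 1.73 and 2.21 RPKM at 24 h. The salt mean at 24 h (1.69 ± 0.54, SD, n = 3) was 4.61-fold above control, 0.99 on the log2(RPKM + 1) scale (SE 0.22), and at 6 h the difference was 0.14 (SE 0.22). The salt difference at 24 h minus that at 6 h was 0.85 (SE 0.31). Of all tested transcripts, 30.1% were higher in salt at 24 h without overlap and 24.1% at 6 h. At the level of libraries the separation was not complete for seq2, since the lowest salt library at 24 h was at 1.13 RPKM and the highest at 6 h was at 1.27 RPKM.

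**Figure D2:**
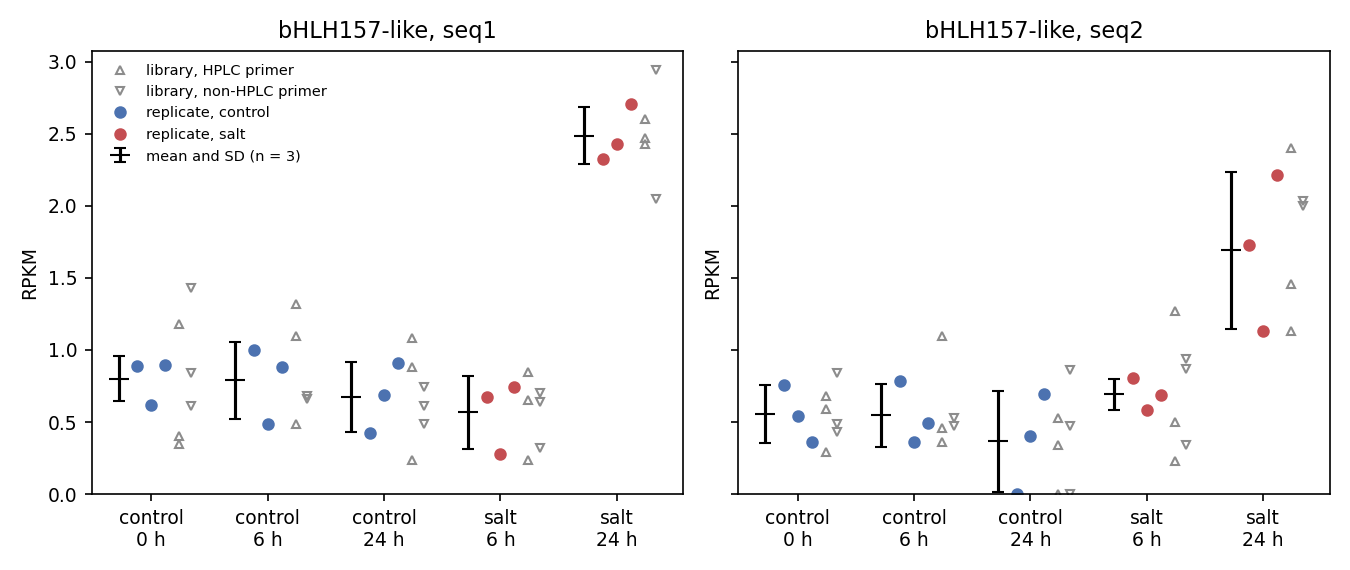
Levels of the bHLH157-like isoforms seq1 (left) and seq2 (right) in RPKM, on a shared linear axis from 0. Filled circles are biological replicates in the order 1 to 3, open triangles single libraries, and the black dash and bar the mean and SD (n = 3). Salt-treated leaves at 24 h lie at 2.33 to 2.71 RPKM for seq1 and at 1.13 to 2.21 RPKM for seq2.

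The isoforms share sequence, so reads that match both were divided between them by the estimation program and each single value is uncertain. Their sum depends on this division only through any difference in isoform length, and the lengths are not known here. Its mean was 1.35 RPKM in control 0 h, 1.34 RPKM in control 6 h, 1.04 RPKM in control 24 h and 1.26 RPKM in salt 6 h, and 4.18 ± 0.69 RPKM (SD, n = 3) in salt-treated leaves at 24 h. The lowest sum of that group was 3.56 RPKM and the highest in any other group was 1.78 RPKM. The share of other components with such a separation was not counted. The seq1 share of the sum was 60.2% ± 7.1 (SD, n = 3) in salt-treated leaves at 24 h, 43.4% ± 10.1 at 6 h of salt, 73.2% ± 23.4 in control leaves at 24 h, 59.2% ± 4.2 at 6 h and 59.6% ± 10.2 at 0 h. The replicates of control 24 h ranged from 56.7% to 100%, since seq2 was listed at 0 in replicate 1. The level of seq1 exceeded that of seq2 in 13 of 15 replicates. All 3 transcripts passed the filter of 1 RPKM in 3 replicates, but seq2 did so only through salt-treated leaves at 24 h, and seq1 through these and control 6 h replicate 1. The isoforms were thus kept through the group in which they were high.

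No difference between index primers was detected for the 3 transcripts. Over the 13 replicates with both libraries, HPLC minus non-HPLC was -0.01 (SE 0.07) for bHLH71, 0.02 (SE 0.12) for seq1 and -0.04 (SE 0.11) for seq2 on the log2(RPKM + 1) scale. Adjusted p in limma was 0.953, 0.934 and 0.882, and the HPLC library was higher in 7, 7 and 4 of 13 replicates. Among all tested transcripts, 6.76% differed between primers at a false discovery rate (FDR) of 0.05.

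Of the other 4 bHLH transcripts, bHLH93-like and MYC2-like rose in salt at 24 h. bHLH93-like (comp8618_c0_seq1), whose Arabidopsis counterpart shares FAMA as a partner with bHLH71, had 0.28, 1.32 and 1.91 RPKM in control leaves at 24 h and 6.3, 6.62 and 8.97 RPKM in salt. The groups did not overlap, and the log2 difference was 2.00 (SE 0.34, adjusted p = 0.000302 in limma). At 6 h it was 0.30 (adjusted p = 0.504), with 0.86, 2.54 and 2.77 RPKM in control and 2.29, 2.71 and 2.81 RPKM in salt. bHLH71 and bHLH93-like thus lay on opposite sides of control at 24 h, by -1.92 and 2.00.

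MYC2-like (comp15580_c0_seq1), named for a central factor of jasmonate signalling, had 7.3, 7.44 and 10.7 RPKM in control leaves at 24 h and 15.5, 17.0 and 18.7 RPKM in salt. Its log2 difference was 0.95 (SE 0.27, adjusted p = 0.00995 in limma), and at 6 h it was -0.63 (adjusted p = 0.0823). For both transcripts the salt difference at 24 h was greater than at 6 h when the change was itself tested, by 1.57 (SE 0.38, adjusted p = 0.00732) for MYC2-like and by 1.70 (SE 0.48, adjusted p = 0.016) for bHLH93-like. The second fell short with HPLC libraries alone (adjusted p = 0.0697).

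bHLH122-like (comp24399_c1_seq3) rose in salt at 6 h. The Arabidopsis factor of that name is induced by drought and salt. Its control replicates were at 4.56, 6.15 and 9.22 RPKM and its salt replicates at 15.02, 16.6 and 19.6 RPKM, a log2 difference of 1.28 (SE 0.25, adjusted p = 0.00182 in limma). At 24 h control leaves already held 17.1 to 22.4 RPKM and salt-treated leaves 27.1 to 32.7 RPKM, a difference of 0.52 (adjusted p = 0.101). It also rose in control leaves from 0 to 24 h, by 1.63 (adjusted p = 0.000384), whereas bHLH71 was lower by 1.51 over the same interval.

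PIF1-like (comp20642_c1_seq1), named for a factor that restrains light responses until phytochrome removes it, varied with the hour. Control leaves had 3.17 to 4.59 RPKM at 0 h, 0.0 to 0.93 RPKM at 6 h and 4.42 to 6.32 RPKM at 24 h. It fell from 0 to 6 h by 1.87 on the log2 scale (adjusted p = 0.000196 in limma). Its salt differences were 0.80 (adjusted p = 0.0681) at 6 h and -0.20 (adjusted p = 0.641) at 24 h.

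**Figure D3:**
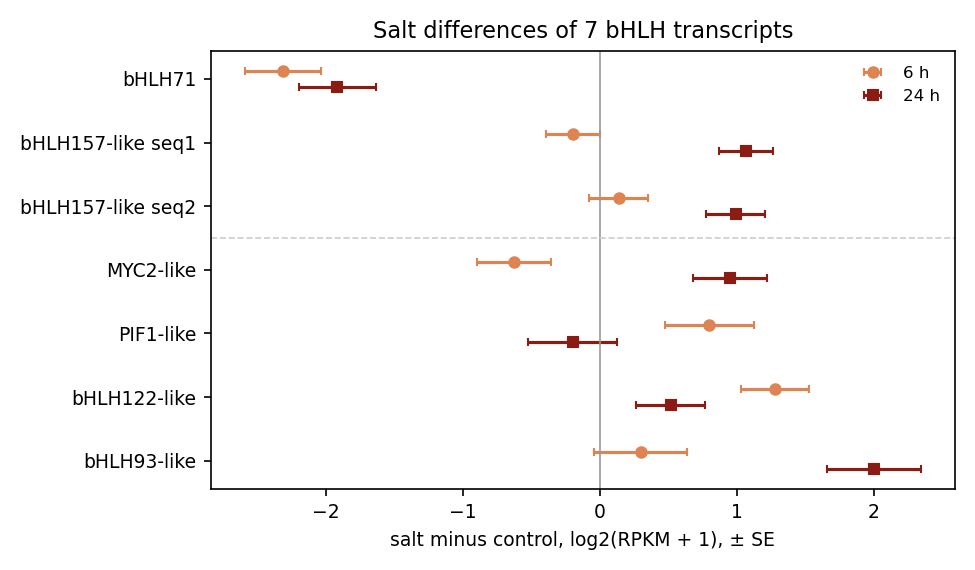
Salt minus control difference of the 7 bHLH transcripts on the log2(RPKM + 1) scale at 6 h (circles) and 24 h (squares), with bars of 1 SE from limma. The 3 transcripts above the dashed line were selected on their values and are shown without a test. bHLH71 lies at -2.31 and -1.92, and bHLH93-like at 0.30 and 2.00.

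Counted over these 4 transcripts, 1 rose and 0 fell in salt at 6 h at an FDR of 0.05 in limma, where 17.3% of all tested transcripts rose and 17.2% fell. At an unadjusted p of 0.05, 2 were higher and 1 was lower. At 24 h of salt, 2 rose and 0 fell (0 also at an unadjusted p of 0.05), against 24.2% and 22.3% of all transcripts. From 0 to 6 h in control leaves, 0 rose (0 at an unadjusted p of 0.05) and 2 fell, against 29% and 28.1%. The second that fell was MYC2-like (-0.68, adjusted p = 0.0426), whose call was lost when each of 8 replicates was left out in turn and with the replicate number as a block (adjusted p = 0.0562 in limma). From 0 to 24 h, 1 rose and 0 fell (0 at an unadjusted p of 0.05), against 16.2% and 22.1%. The salt difference was greater at 24 h than at 6 h for 2 and smaller for 0 (2 at an unadjusted p of 0.05), against 17.1% and 15.2%. With 4 transcripts these counts do not set the bHLH list apart from other transcripts. The comparisons share control samples.

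The level of all transcripts shifted little between groups. The median log2 difference of all tested transcripts was -0.07 for salt at 6 h and 0.01 at 24 h. Setting all replicates to the same median moved the share of rising transcripts among those called in salt at 6 h from 50.1% to 60%. It moved the median for control 24 h minus 0 h from -0.08 to 0.12, and that share from 42.3% to 59.7%. For the salt difference at 24 h minus 6 h the median moved from 0.06 to -0.09 and that share from 53% to 41.6%. Under that scaling bHLH71 differed by -1.31 between control leaves at 24 and 0 h, and its salt differences were -2.22 at 6 h and -1.97 at 24 h.

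The transcripts whose pattern was most like that of bHLH71 over the 15 replicates also had high levels in control leaves at 0 h and low levels in salt. This is a description over replicates that share the 5 groups. Here and below, the most alike and most opposite are those among described transcripts. Transcripts without a description were not ranked, and some had a stronger r. The 5 described components with the highest Pearson r were a pair of L-ascorbate oxidase homologs (comp22153_c0_seq1, r = 0.95, and comp9671_c0_seq2, r = 0.95), subunit 7 of NADH dehydrogenase (comp22823_c0_seq2, r = 0.95), a cytochrome P450 (comp15892_c0_seq2, r = 0.94) and an FKBP65-like peptidyl-prolyl isomerase (comp23853_c0_seq1, r = 0.92). The homolog comp22153_c0_seq1 had mean RPKM of 7.96, 7.67 and 3.35 over the control times in order, and 1.97 and 0.86 in salt at 6 and 24 h. The FKBP65-like transcript had 12.9, 11.6 and 4.20 RPKM and then 3.73 and 0.40 RPKM.

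The transcripts most opposite to bHLH71 were an alpha-aminoadipic semialdehyde synthase-like transcript (comp11676_c0_seq1, r = -0.96), which codes for an enzyme of lysine breakdown, a protein phosphatase 2C 8-like transcript (comp21321_c1_seq1, r = -0.96) and the gamma-1-like regulatory subunit of an SNF1-related protein kinase (comp24211_c0_seq2, r = -0.96). The synthase had mean RPKM of 2.71, 3.02 and 6.03 over the control times in order, and 43.0 and 70.0 in salt at 6 and 24 h. The kinase subunit had 4.27, 9.22 and 17.8 RPKM in control leaves and 60.1 and 72.4 RPKM in salt. Among the bHLH transcripts, bHLH122-like was the most opposite, with r = -0.90.

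**Figure D4:**
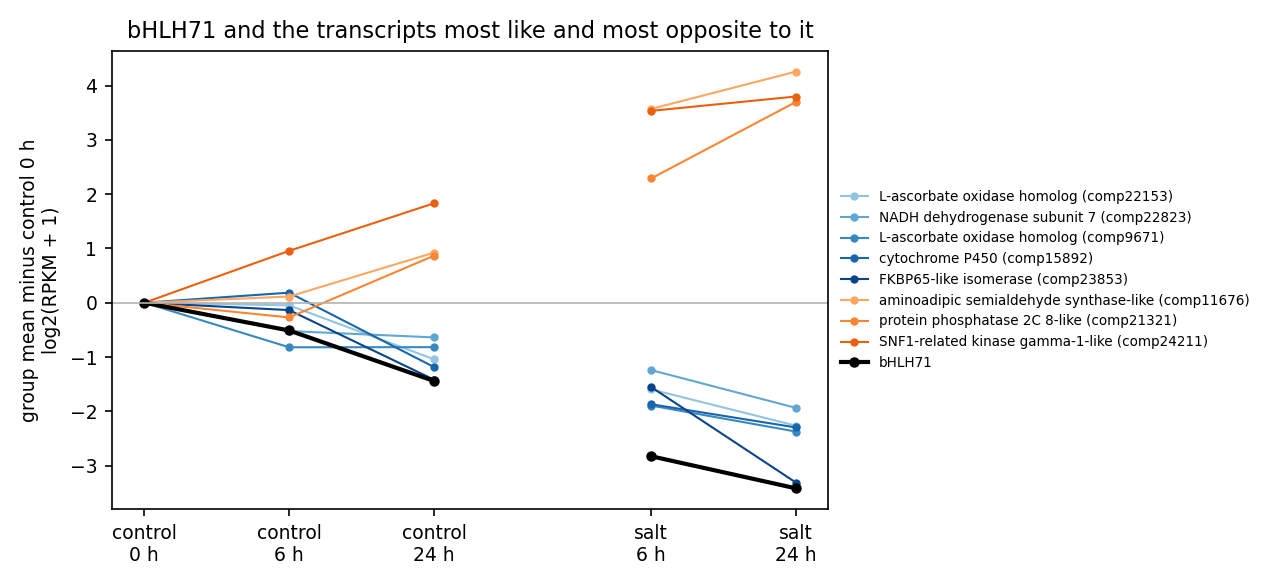
Group means relative to control leaves at 0 h on the log2(RPKM + 1) scale for bHLH71 (black), the 5 described transcripts most like it (blue) and the 3 most opposite to it (orange). Lines join times within control and within salt only. bHLH71 and the blue lines lie below 0 in salt and the orange lines above it.

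For the bHLH157-like isoforms, the most alike described transcripts were highest in salt-treated leaves at 24 h. Most of them were near 0 or low in the other 4 groups. For seq1 they were an acetyltransferase (comp14746_c0_seq1, r = 0.93), a G-type lectin receptor-like kinase (comp18591_c0_seq2, r = 0.93), a calcium lipid binding protein (comp21732_c0_seq2, r = 0.92), a UPF0098 family protein (comp8627_c0_seq2, r = 0.91) and neutral invertase (comp25749_c0_seq1, r = 0.91), which splits sucrose. Neutral invertase had 5.70 to 7.99 RPKM in the other 4 groups and 22.2 RPKM in salt-treated leaves at 24 h. For seq2 they were a glutathione S-transferase U8-like transcript (comp18195_c0_seq1, r = 0.90), a hormone-sensitive lipase (comp20683_c0_seq2, r = 0.85), a SAC1-like phosphoinositide phosphatase (comp26304_c0_seq12, r = 0.85), a monoglyceride lipase-like transcript (comp22525_c0_seq3, r = 0.83) and the small GTPase RABC2a-like (comp18083_c0_seq1, r = 0.83). The glutathione S-transferase went from 0.20 to 0.80 RPKM in the other groups to 5.79 RPKM.

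Most opposite to seq1 were a macrophage migration inhibitory factor family protein (comp11219_c0_seq1, r = -0.92), a neomenthol dehydrogenase-like transcript (comp23737_c0_seq2, r = -0.91) and a nonspecific lipid-transfer transcript (comp14278_c0_seq1, r = -0.91). For seq2 they were a serine carboxypeptidase 24-like transcript (comp13299_c0_seq1, r = -0.85), an alternative NADH dehydrogenase (comp13139_c0_seq1, r = -0.85) and a GDSL esterase (comp11731_c0_seq1, r = -0.84). Between seq1 and seq2 r was 0.85, and bHLH71 had r = -0.53 with seq1 and -0.62 with seq2. Of the 5 most alike by Pearson r, 3, 2 and 2 were also among the first 5 by Spearman's rho for bHLH71, seq1 and seq2.

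Genes of pathways linked to these factors in Arabidopsis were examined as lists, matched by description, so a listed transcript need not act with them. In most lists some entries were isoforms of 1 component, so counts are not of independent genes. The vascular list of LONESOME HIGHWAY targets and partners held LOG enzymes, which release active cytokinin, thermospermine and spermine synthases and auxin efflux carriers. Of its 13 transcripts, 6 rose and 1 fell in salt at 6 h, and 5 rose and 3 fell at 24 h, with medians of 0.48 and -0.15 where all transcripts had -0.07 and 0.01. Over all tested transcripts, and likewise for the lists that follow, 17.3% rose and 17.2% fell at 6 h, and 24.2% rose and 22.3% fell at 24 h. The leading members were isoforms of 1 LOG1-like component. The isoform comp25039_c1_seq7 had 7.03 ± 2.51 RPKM in control and 26.6 ± 3.26 RPKM in salt at 6 h (SD, n = 3), a log2 difference of 1.82 (adjusted p = 0.000285 in limma), and 5.78 ± 0.75 and 25.5 ± 8.21 RPKM at 24 h, a difference of 1.93 (adjusted p = 5.85e-05). Its sister isoform comp25039_c1_seq2 rose by 1.68 and 1.73 (adjusted p = 0.00106 and 0.000389 in limma), and reads that fit both were divided between them. The part of the bHLH157-like factor in these differences was not tested.

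The stomatal lineage list matched kinases of the mitogen-activated cascade alone, described as kinase 9-like and kinase kinase 6-like. Whether these act in that lineage was not measured, so the counts below describe these kinases and not partners of bHLH71. Of 5 transcripts, 1 rose and 0 fell at 6 h (1 was lower at an unadjusted p of 0.05), and 2 rose and 0 fell at 24 h (0 were lower at an unadjusted p of 0.05). The riser at 6 h was the mitogen-activated protein kinase 9-like isoform comp24929_c0_seq2 (0.75, adjusted p = 0.00913 in limma), while its sister comp24929_c0_seq3 was at -0.50 (adjusted p = 0.0757). At 24 h the mitogen-activated protein kinase kinase 6-like isoforms comp21793_c0_seq3 and comp21793_c0_seq2 rose by 1.42 and 0.77 (adjusted p = 0.000395 and 0.0293 in limma). The guard cell list of 5 transcripts, an SLAC1-like anion channel and HT1-like kinases, had 0 called in either direction at either time in limma, and 0 at an unadjusted p of 0.05. SLAC1-like (comp8420_c0_seq1), the channel through which guard cells release anions, had 5.14 ± 1.32 RPKM in control and 4.20 ± 0.37 RPKM in salt at 6 h, and 16.2 ± 3.4 and 12.7 ± 1.4 RPKM at 24 h (SD, n = 3). The summed guard cell list was 17.1 to 18.0 RPKM in salt and 17.6 to 21.8 RPKM in control at 6 h, and 16.0 to 19.9 and 18.0 to 24.8 RPKM at 24 h.

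Of 10 transcripts for known regulators of bHLH activity, such as phytochrome B, COP1 and enzymes of gibberellin synthesis, 1 rose and 2 fell at each time. Gibberellin 20-oxidase comp10312_c0_seq1 fell from 7.20 ± 2.60 to 1.89 ± 0.70 RPKM at 6 h (SD, n = 3; log2 difference -1.49, adjusted p = 0.00417 in limma), and the 20-oxidase comp24837_c0_seq1 rose by 0.92 (adjusted p = 0.019). At 24 h gibberellin 3-oxidase comp22210_c0_seq1, which makes the active hormone, fell by 2.07 (adjusted p = 0.000522), and COP1-like comp15739_c0_seq1, a ubiquitin ligase that acts in the dark, fell by 0.67 (adjusted p = 0.0238). The abscisic acid list matched protein phosphatases 2C alone, a family of which only some members are known to act in abscisic acid signalling, and several of its entries were isoforms of 1 component, so its counts describe this phosphatase family and not the hormone pathway. Of its 24 tested transcripts, 8 rose and 4 fell at 6 h, and 3 rose and 3 fell at 24 h. The protein phosphatase 2C 8-like isoform comp21321_c1_seq1, also among the transcripts most opposite to bHLH71, rose by 2.62 at 6 h and 2.88 at 24 h (adjusted p = 0.000216 and 3.16e-05 in limma). Its sisters comp21321_c1_seq3 and comp21321_c1_seq2 rose by 2.45 at 6 h (adjusted p = 0.000452) and by 2.73 at 24 h (adjusted p = 2.92e-05). The 1 brassinosteroid transcript, BRI1-like 2-like (comp10349_c0_seq1), differed by 0.27 and -0.12 (adjusted p = 0.518 and 0.776).

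Markers of other cell types moved between groups as well. The summed level of the 16 transcripts of dividing cells was 58.6 to 67.1 RPKM in control leaves at 0 h and 57.1 to 81.5 RPKM at 6 h, but 22.7 to 31.6 RPKM at 24 h, 29.8 to 35.8 RPKM in salt at 6 h and 25.03 to 28.2 RPKM in salt at 24 h. Control leaves at 0 and 6 h, which had more bHLH71 than those at 24 h, also had more of these transcripts. The order of means differed for other pairs, in which the ranges of the sum overlapped. The summed mean was 62.0 RPKM at 0 h and 68.4 RPKM at 6 h in control leaves. The bHLH71 mean was lower at 6 h in that pair, with overlapping replicates. The summed mean was 27.2 RPKM in control at 24 h and 32.4 RPKM in salt at 6 h, where bHLH71 was lower in salt. The part of these transcripts in the bHLH71 differences was not tested. At 6 h of salt, 1 of the 16 rose and 6 fell, where 17.3% of all transcripts rose and 17.2% fell, led by the replication licensing factors MCM2-like comp9318_c0_seq1 (-2.69, adjusted p = 2.58e-05 in limma) and MCM4-like comp25231_c0_seq5 (-2.03, adjusted p = 0.000118). At 24 h, 2 rose and 2 fell. Several of the 16 were isoforms of 1 component, such as the kinesin heavy and MCM4-like transcripts, so these counts are not of independent genes.

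Of 6 mesophyll transcripts, 1 rose and 0 fell in salt at 6 h (0 were lower at an unadjusted p of 0.05), and 0 rose (0 at an unadjusted p of 0.05) and 2 fell at 24 h in limma. Their sum was dominated by a chlorophyll a-b binding protein (comp25306_c0_seq3), with 4084 ± 685 RPKM in control and 1214 ± 44.5 RPKM in salt at 24 h (SD, n = 3; log2 difference -1.74, adjusted p = 7.57e-05 in limma). The summed mesophyll level was 1221 to 1311 RPKM in salt at 24 h, the group in which the bHLH157-like isoforms were high, and 1923 to 4929 RPKM over the other groups. Of 4 epidermis and cuticle transcripts, 1 rose and 1 fell at 6 h, and 1 rose and 2 fell at 24 h. Their sum was 557 to 762 RPKM in salt at 24 h and at most 272 RPKM elsewhere, and most of it was 1 lipid-transfer protein (comp15976_c0_seq2) that rose from 159 ± 34.4 to 629 ± 105 RPKM (SD, n = 3; log2 difference 1.99, adjusted p = 0.000619 in limma). A GDSL esterase of the same list (comp11731_c0_seq1) fell from 60.4 ± 9.52 to 3.49 ± 1.00 RPKM (SD, n = 3; log2 difference -3.79, adjusted p = 1.1e-07). The part of these shifts in the bHLH157-like levels was not tested. Of 6 xylem and lignin transcripts, 1 rose and 1 fell at each time, cinnamoyl-CoA reductase-like comp18237_c0_seq1 (0.51 and 2.21) and cinnamyl alcohol dehydrogenase comp23357_c0_seq1 (-0.74 and -1.32). At 6 h these calls were close to the threshold (adjusted p = 0.0484 and 0.0312 in limma), and 0 rose with the replicate number as a block and 0 fell with equal medians. The 1 phloem transcript, callose synthase 7-like (comp19945_c0_seq1), was at -0.62 and 0.45 (adjusted p = 0.182 and 0.319 in limma). Of 2 petal pigment transcripts, both flavonoid glucosyltransferases, 2 rose at 6 h and 1 at 24 h.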

How the data were processed

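Per the methods of the study, poly(A) RNA was made into strand-specific libraries, sequenced in 1 HiSeq lane, trimmed with ea-utils, assembled with Trinity, mapped with Bowtie, quantified with RSEM and annotated with Blast2GO. Versions are not given in the sources used here. The authors deposited RPKM per transcript and library, which are not counts, so count-based tests were not run. How the 4767 transcripts were chosen is not stated. Of 29 columns, 28 were used. The remaining 1 could not be matched to a label, because salt at 24 h has 6 columns and 5 labelled samples. The study reports reads for all 6 libraries of that group. Salt 24 h replicate 2, with the lowest seq2 value of its group (1.13 RPKM), therefore rested on its HPLC library alone. Control 6 h replicate 2 also had its HPLC column alone, and the study reports that 1 library of that group failed. The 3 labelled salt samples of 0 h had no column of values, so they could not be analysed here. RPKM hold no read depth, and precision rests on 3 replicates per group. The methods do not state whether a replicate number marks the same pool of plants at each time, so no pairing was assumed, and times within a treatment may share plants, which the p-values of comparisons between times do not allow for.

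For each replicate the mean of its libraries was used, on the log2(RPKM + 1) scale. A transcript was kept if 3 of the 15 replicates reached 1 RPKM, which held for 4658 and left out 109. A single model of the 5 groups was fitted with a variance trend (limma 3.58.1 under R 4.3.3). The Benjamini-Hochberg adjustment covered every transcript kept, and a call needed an FDR of 0.05. The primer was tested within replicates in limma. The code was tested on simulated data. The members and lists were chosen with earlier results of these data known. Lists were matched to annotation descriptions, and an iron list matched 0 transcripts. Named were the 3 members, the other 4 bHLH transcripts, the 5 most alike and 3 most opposite described transcripts per member (1 per component, Pearson r), up to 2 transcripts per list and salt comparison by adjusted p, and up to 2 of the most abundant of each marker list. Alternatives were a pseudocount of 0.1, no filter, a replicate block, HPLC libraries only, each library as its own replicate, equal medians, only the compared groups, an FDR of 0.001 with a log2 fold change of 1, Spearman's rho, and each replicate left out in turn.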

Additional observations from a re-analysis of the deposited data

Results flagged for a closer look

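The salt difference of MYC2-like (comp15580_c0_seq1) was tested between times and was 1.57 greater at 24 h than at 6 h on the log2(RPKM + 1) scale (adjusted p = 0.00732 in limma), with a lower mean in salt at 6 h and a higher mean at 24 h. That of bHLH93-like (comp8618_c0_seq1) was 1.70 greater at 24 h (adjusted p = 0.016 in limma), with all 3 salt replicates above all control replicates at 24 h and overlapping groups at 6 h.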

How the results depend on the processing

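The salt differences of bHLH71 at both times, and those of both bHLH157-like isoforms at 24 h, kept their direction under all alternatives run. The replicates of these comparisons did not overlap, so leaving a replicate out could not change the direction. Since the members were selected on these values, the kept direction is a description. With a replicate left out, bHLH71 ranged from -2.43 to -2.19 at 6 h and from -2.12 to -1.57 at 24 h, seq1 from 0.96 to 1.17 at 24 h, and seq2 from 0.78 to 1.16. A salt 24 h replicate left out took seq2 below the filter, so no value could be had. A pseudocount of 0.1 changed the isoforms most, since their levels were near 1 RPKM. It gave -0.45 for seq1 in salt at 6 h, 1.79 for seq1 and 2.34 for seq2 in salt at 24 h, -0.89 for seq2 in control 24 h minus 0 h, and 2.24 for seq1 and 2.00 for seq2 in the salt difference at 24 h minus 6 h. In control leaves, seq1 changed sign at 6 h minus 0 h (0.27 with HPLC libraries alone) and at 24 h minus 0 h (0.078 with HPLC libraries alone and 0.085 with equal medians).

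Of the other 4 bHLH transcripts, the number that rose in salt at 6 h was 2 with a pseudocount of 0.1, with each library as its own replicate or with equal medians, through PIF1-like, and 0 at an FDR of 0.001 with a log2 fold change of 1. It was 1 to 2 with a replicate left out, and 2 without control 6 h replicate 3 or salt 6 h replicate 2. The number that fell was 1, MYC2-like, with HPLC libraries alone or each library as its own replicate. At 24 h, 1 rose at the stricter threshold. In control leaves at 6 h, 1 fell with a pseudocount of 0.1, with only the compared groups and at the stricter threshold, since the MYC2-like call was lost under the first pair of these, and 1 to 2 fell with a replicate left out (1 without control 0 h replicate 2 or 3, control 6 h replicate 1 or 2, salt 6 h replicate 1 or any salt 24 h replicate). The salt difference was greater at 24 h for 1 with HPLC libraries alone and for 0 at the stricter threshold, and smaller for 1 with each library as its own replicate and for 0 to 1 with a replicate left out (1 without control 6 h replicate 3 or salt 6 h replicate 2). Same-numbered replicates correlated at -0.26 to 0.29 in their deviations from the group means, and 6 of 30 pairs exceeded 0.1, 5 of them between control times. With the replicate number as a block, MYC2-like in control 6 h minus 0 h had an adjusted p of 0.0562 in limma, so 1 fell, and no other bHLH call changed. In the lists, the block gave 2 fallen epidermis transcripts and 0 risen xylem transcripts at 6 h, and 0 risen regulators at 24 h. Equal medians gave 1 fallen regulator, 2 fallen protein phosphatase 2C, 2 risen epidermis and 0 fallen xylem transcripts at 6 h, and 0 risen regulators and 5 fallen protein phosphatase 2C transcripts at 24 h.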
